A study of Homo sapiens with 6 samples.

Results

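The genes described here are the 4 FOS genes (FOS, FOSB, FOSL1 and FOSL2), the 3 JUN genes (JUN, JUNB and JUND) and 3 other immediate early genes, EGR1, IER2 and IER3. They were taken by symbol from the deposited gene table, in which 10 of 58735 genes carried these names, and all 10 passed edgeR's filter on low counts, as did 16116 genes in all. The study measured mRNA by RNA-seq in cells labelled MG63, an established human osteosarcoma line, to look for genes downstream of FUBP1, a protein that binds single-stranded DNA and RNA. One group of 3 samples was transfected with siRNA against FUBP1 (siFUBP1), and the other group of 3 with a negative control siRNA (siMock). Both groups were cells of the same labelled line with no other allele or drug named, and the siMock samples were transfected too. The sources do not say whether the 3 samples of a group were separate cultures, so the p-values below measure the spread between these samples, which may be technical.

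AP-1 is a transcription factor made of pairs of proteins that share a basic DNA-binding region and a leucine zipper. JUN proteins pair with each other or with a FOS protein, and FOS proteins need such a partner to bind DNA. Many of these genes are immediate early genes, which are transcribed within minutes of a growth factor or stress signal through MAP kinases and the factors ELK1 and SRF, and whose mRNAs are often short-lived. In bone, FOS and FOSL1 are known for their roles in osteoblasts and osteoclasts, and FOS was first found as the oncogene of a virus that causes bone tumours in mice.

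Total counts lay between 16309900 and 17484313 per sample. FOSB and EGR1 were the least counted of the 10 genes, with 17 to 95 reads. Levels are given as CPM, counts per 1000000 counts of a library whose size was scaled by TMM. FUBP1 (ENSG00000162613) was at 237, 255 and 274 CPM in siMock 1, 2 and 3 and at 44.4, 43.4 and 53.0 CPM in siFUBP1 1, 2 and 3, so 18.4% of the siMock level was left. Reads on mitochondrial genes made up 5.60 to 6.59% of the siMock libraries and 3.98 to 4.88% of the siFUBP1 libraries. The defining markers did not all fit the labelled cell type. Of 16 mesenchymal and osteoblast markers, COL1A2 and IBSP were at 0 counts in all 6 samples, which allows up to 0.184 CPM in the shallowest one for counting error only, and COL3A1, SPARC, THY1, ALPL and SP7 had at most 5 counts in any sample. COL1A1 was at 108 to 118 CPM in siMock and at 45.4 to 45.7 CPM in siFUBP1. Some other markers of that list were well expressed. COL5A1 was at 454 to 489.5 CPM in siMock and 230 to 254 CPM in siFUBP1, and COL6A1 at 72.7 to 88.4 and 36.1 to 43.0 CPM. FN1 was at 100.4 to 121 and 64.2 to 66.4 CPM, and VIM at 141 to 159 and 183 to 214 CPM. RUNX2 was low, at 0.384 to 0.490 and 2.23 to 5.59 CPM. So was TWIST1, at 0.384 to 1.04 CPM in siMock and 0.286 to 2.54 CPM in siFUBP1. BGLAP and SPP1 had at most 13 and 22 counts in any sample. Of the 7 genes of that list that were tested, 2 were higher and 4 lower in siFUBP1, and its summed level was 903 to 952 CPM in siMock and 571 to 620.3 CPM in siFUBP1. The 10 epithelial markers summed to 2743 to 3134 CPM in siMock and 1411 to 1548 CPM in siFUBP1, with KRT5 at 0, and most of this was KRT8, at 1835 to 2143 and 929.9 to 1040 CPM. KRT18 was at 674 to 753 CPM in siMock and 432 to 454 CPM in siFUBP1. MUC1 was at 188 to 203.5 CPM in siMock and 32.2 to 39.8 CPM in siFUBP1, and CLDN4 at 25.6 to 31.5 and 10.8 to 11.9 CPM. Other epithelial markers were low. EPCAM was at 3.78 to 4.23 and 4.15 to 4.91 CPM, and CDH1 at 0.641 to 1.35 and 0.461 to 1.18 CPM. KRT14, KRT19 and ESRP1 had at most 3 counts in any sample. Of the 6 epithelial markers tested, 4 were lower and 0 higher in siFUBP1. The 10 leukocyte markers summed to at most 5.12 CPM, with CD3D, CD3E and MS4A1 at 0, and the 8 endothelial markers to at most 5.65 CPM, with ERG and EMCN at 0. These levels go in part against the label, whether the cells are the labelled line was not tested, and MG63 stands here only as the label. The part of the marker levels and of the mitochondrial share in the results was not tested, and in bulk samples fewer cells of a type and less RNA per cell cannot be told apart.

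The sequences shown first are promoter elements, of which 6 of the 10 genes held at least 1 in the 250 bases before their start. Bases further from the start were not searched. RefSeq promoters on GRCh38.p14 were matched by symbol for 8 of the 10 genes, all but FOSL1 and IER3. Both strands were searched for the AP-1 site TGANTCA, the CRE-like site TGACNTCA, whose centre is longer by 1 base and which is bound by JUN and ATF proteins, the CArG box bound by SRF, and TATAAA, the TATA box. Each line gives 30 bases on the strand of the gene, with the match in capitals, and no 2 matches overlap.
FOS, TATA box at -33 to -28, chr14:75278783-75278812, plus strand: taaaacgcttgtTATAAAagcagtggctgc
FOSB, TATA box at -30 to -25, chr19:45467954-45467983, plus strand: gggtcccgggcaTATAAAtacaggctggcg
JUNB, TATA box at -31 to -26, chr19:12791443-12791472, plus strand: tgactagcgcggTATAAAggcgtgtggctc
JUN, CRE-like site at -67 to -60, chr1:58784096-58784125, minus strand: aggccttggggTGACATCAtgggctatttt
JUND, CRE-like site at -200 to -193, chr19:18281804-18281833, minus strand: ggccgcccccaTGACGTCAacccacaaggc
EGR1, CArG box at -105 to -96, chr5:138465364-138465393, plus strand: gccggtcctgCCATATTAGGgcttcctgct
EGR1, CArG box at -83 to -74, chr5:138465386-138465415, plus strand: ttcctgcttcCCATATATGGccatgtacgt
Of 35116 promoters of the same length, 10.7% held TATAAA, 6.87% the CRE-like site, 1.16% a CArG box and 6.57% the AP-1 site. FOS, FOSB and JUNB held only TATAAA, the most common of these. Only JUN, JUND and EGR1 held a match to the CRE-like site or the CArG box. Variants that depart from the letters searched were not counted, for any of these elements. The AP-1 site was in none of the 8 windows, which says only that these letters are not there. The RefSeq and GENCODE starts differ for some genes, and the sites of FOS and JUN lie inside the bounds that GENCODE 29 gives these genes. The genes with TATAAA were FOS and JUNB, which fell, and FOSB, which rose. A match to the CRE-like site stood before JUN, which rose, and JUND, which fell. The part of these elements in the changes was not tested.

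The second set of sequences comes from the 3′ UTRs, because AUUUA repeats mark many short-lived immediate early mRNAs. Each line gives 30 bases of the 3′ UTR in DNA letters, with each AUUUA in capitals and positions counted from 1 at the first base after the stop codon.
FOS, 623 to 652: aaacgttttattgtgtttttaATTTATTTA
IER3, 252 to 281: ttgctcctaattaatATTTAtatgtATTTA
FOSL2, 3894 to 3923: agaagaaattgacATTTAttttattATTTA
FOSL1, 573 to 602: agcctccacagcgagggcagctgctATTTA
AUUUA occurred 9 times in FOSL2, 6 times in IER3, 5 times in FOS, 3 times each in FOSB and JUN, 2 times in JUNB and once each in FOSL1, JUND and EGR1, and IER2 had none. These counts are not scaled by length: the 3′ UTR had 4864 bases in FOSL2, 2166 in FOSB, 806 in FOS and 737 in IER3. The shares that follow were not matched for length either. Of 18442 genes with a 3′ UTR, 66% held at least 1 AUUUA and 38.3% at least 3. The longer UUAUUUAUU, held by 7.71% of these genes, was found in FOS and FOSL2. FOS with 5 fell, IER3 with 6 rose and FOSL1, which rose most, had 1. The part of AUUUA in the changes was not tested.

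By the quasi-likelihood F test of edgeR, adjusted over all 16116 tested genes by the Benjamini-Hochberg method, 8 of the 10 genes changed at an adjusted p below 0.05, or 80%, where 60.2% of all genes tested did. FOSL1, FOSB, JUN, IER3 and IER2 were higher in siFUBP1, 5 of 10 where 30.1% of all genes were called higher. JUNB, JUND and FOS were lower, 3 of 10 where 30.1% of all genes were called lower. FOSL2 and EGR1 did not pass the test. Past a fold change of 2 there were 3 higher, FOSL1, FOSB and JUN, with 8.16% of all genes called so, and 1 lower, JUNB, with 9.13%. The siMock and siFUBP1 samples did not overlap for 9 of the 10 genes, all but EGR1, and for 63.9% of all genes tested. The median log2 fold change of the 10 genes was 0.43, beside 0.002 for all genes tested. With so many genes changed in the whole table, the shares say little about the 10 as a set, and the account below goes gene by gene.

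**Figure D1:**
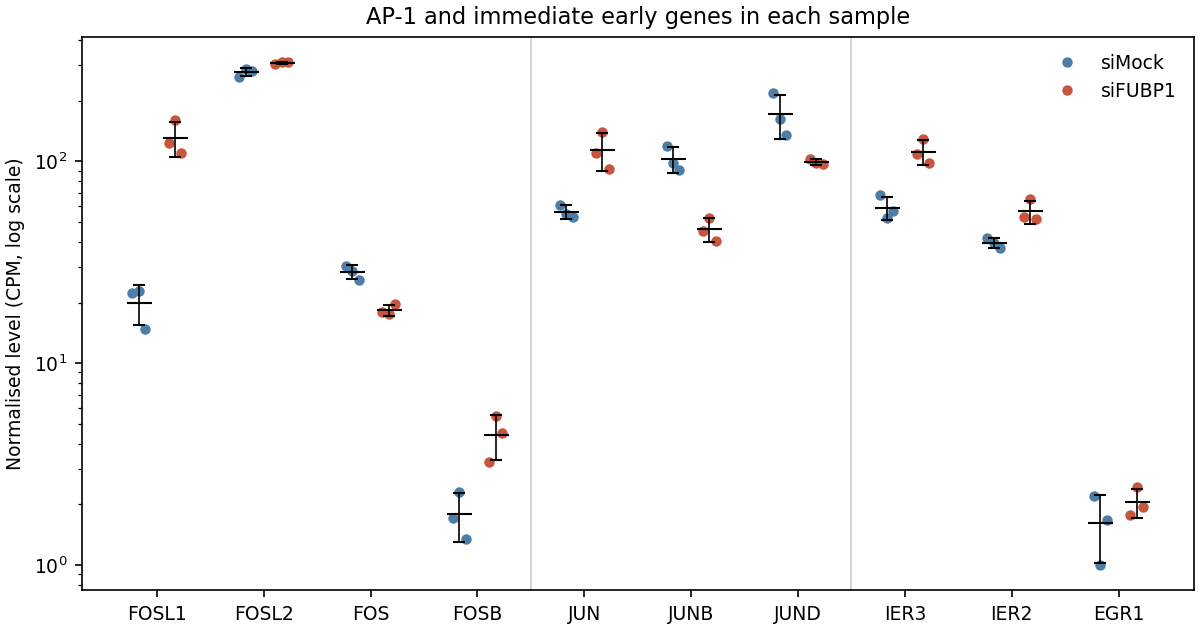
Level of each gene in CPM (log axis) in the 3 siMock (blue) and 3 siFUBP1 (red) samples; points are samples and black bars the mean ± SD, and grey lines part the FOS genes, the JUN genes and the other immediate early genes. FOSL1 shows the widest gap between groups, 14.8 to 22.8 against 109.8 to 159.9 CPM, and only EGR1 overlaps.

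Among the FOS genes the members moved in different ways. FOSL1 (ENSG00000175592, chromosome 11, 65892049 to 65900573 on the minus strand of GRCh38, 4 exons) encodes FRA-1, a FOS protein without the strong activation domains of FOS and FOSB. It was at 22.3, 22.8 and 14.8 CPM in siMock 1, 2 and 3 and at 122.9, 159.9 and 109.8 CPM in siFUBP1 1, 2 and 3. The lowest siFUBP1 sample was 4.82 times the highest siMock sample, while the samples of a group differed by at most 1.54 times. FOSL1 thus rose 6.54-fold, from 19.96 ± 4.48 CPM to 131 ± 26.0 CPM (SD, n = 3 each), a log2 fold change of 2.71 (standard error, SE, 0.206, edgeR adjusted p = 1.62e-05). This was the largest change among the 10 genes, and it lay between 2.53 and 2.82 under the 17 other settings tried.

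FOSB (ENSG00000125740, chromosome 19, 45467995 to 45475179, plus strand) encodes a FOS protein studied in neurons and in bone. It was counted little, with 28, 39 and 21 reads in siMock and 55, 95 and 79 in siFUBP1, or 1.72, 2.30 and 1.35 CPM against 3.26, 5.48 and 4.53 CPM. Every siFUBP1 sample lay above every siMock sample, and FOSB rose by 1.30 on the log2 scale (SE 0.258, edgeR adjusted p = 1.03e-04). On the log2(FPKM + 1) scale, which compresses genes this low, limma gave 0.44, and the call held there.

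FOS itself (ENSG00000170345, chromosome 14, 75278774 to 75282230, plus strand) went the other way. It was at 30.4, 28.8 and 25.9 CPM in siMock and at 17.9, 17.5 and 19.6 CPM in siFUBP1, with no overlap. From 28.4 ± 2.26 to 18.3 ± 1.10 CPM (SD, n = 3 each), FOS fell by 0.63 on the log2 scale (SE 0.103, edgeR adjusted p = 8.40e-06), or 1.55-fold. Its change lay between -0.70 and -0.53 under the other settings. FOS and FOSL1, the classical early and late members of the family, therefore changed in opposite directions in the same samples.

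FOSL2 (ENSG00000075426, chromosome 2, 28392448 to 28417312, plus strand), which encodes FRA-2, was the most counted FOS gene, with 4292 to 5403 reads per sample. Its levels were 263, 287 and 282 CPM in siMock and 305, 311 and 309.5 CPM in siFUBP1. The groups did not overlap, but they were close. The log2 fold change was 0.15 with a 95% interval from 1.05e-04 to 0.31, and the adjusted p was 0.0787 by edgeR's quasi-likelihood test. Of the 17 other settings, 6 called it higher, at 0.15 to 0.25, so its call depended on the setting.

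The JUN genes also split. JUN (ENSG00000177606, chromosome 1, 58780788 to 58784327, minus strand) is a gene of a single exon that encodes the founding partner of FOS. It was at 61.2, 54.6 and 53.2 CPM in siMock and at 109.6, 139.4 and 91.7 CPM in siFUBP1. No siFUBP1 sample reached down to the siMock samples, and siFUBP1 2 was the highest. JUN rose from 56.3 ± 4.26 to 114 ± 24.1 CPM (SD, n = 3 each), a log2 fold change of 1.01 (SE 0.124, edgeR adjusted p = 5.52e-06). Since this sits at the fold threshold of 2, JUN was past it in 11 of the 17 other settings, and without siFUBP1 2 its log2 fold change was 0.84.

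JUNB (ENSG00000171223, chromosome 19, 12791496 to 12793315, plus strand, 1 exon) encodes a JUN protein that activates transcription less than JUN and can oppose it. It was at 119.8, 98.2 and 91.1 CPM in siMock and at 45.0, 52.7 and 40.5 CPM in siFUBP1. The lowest siMock sample was 1.73 times the highest siFUBP1 sample. JUNB fell by 1.16 on the log2 scale, from 103 ± 15.0 to 46.1 ± 6.17 CPM (SD, n = 3 each; SE 0.105, edgeR adjusted p = 3.04e-09), the clearest decrease of the 10. It shares 259 exonic bases with HOOK2 on the opposite strand, and the sources do not state whether reads were counted by strand. HOOK2 had 300 to 410 reads in siMock and 374 to 433 in siFUBP1, with a log2 fold change of 0.06 (edgeR adjusted p = 0.637), while JUNB had 1422 to 1955 and 707 to 914 reads.

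JUND (ENSG00000130522, chromosome 19, 18279760 to 18281622, minus strand) encodes the JUN protein that most cells hold at rest, and it too was lower. It was at 219, 162 and 136 CPM in siMock and at 103, 97.9 and 97.0 CPM in siFUBP1. The siFUBP1 samples lay close together while the siMock samples spread 1.61-fold, with siMock 1 the highest. JUND fell by 0.79 on the log2 scale, from 172 ± 42.4 to 99.3 ± 3.14 CPM (SD, n = 3 each; SE 0.150, edgeR adjusted p = 0.00120). Without siMock 1 the log2 fold change was -0.59. With 69.7% GC in its longest transcript, JUND was the most GC-rich of the 10 genes, and a correction for GC content and length brought its log2 fold change to -0.42, still past the test (edgeR adjusted p = 6.17e-06, between 3.81e-19 and 0.0163 across the 17 settings). JUNB, with 64.9% GC, went to -0.95 under the same correction and so no longer passed the 2-fold threshold.

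**Figure D2:**
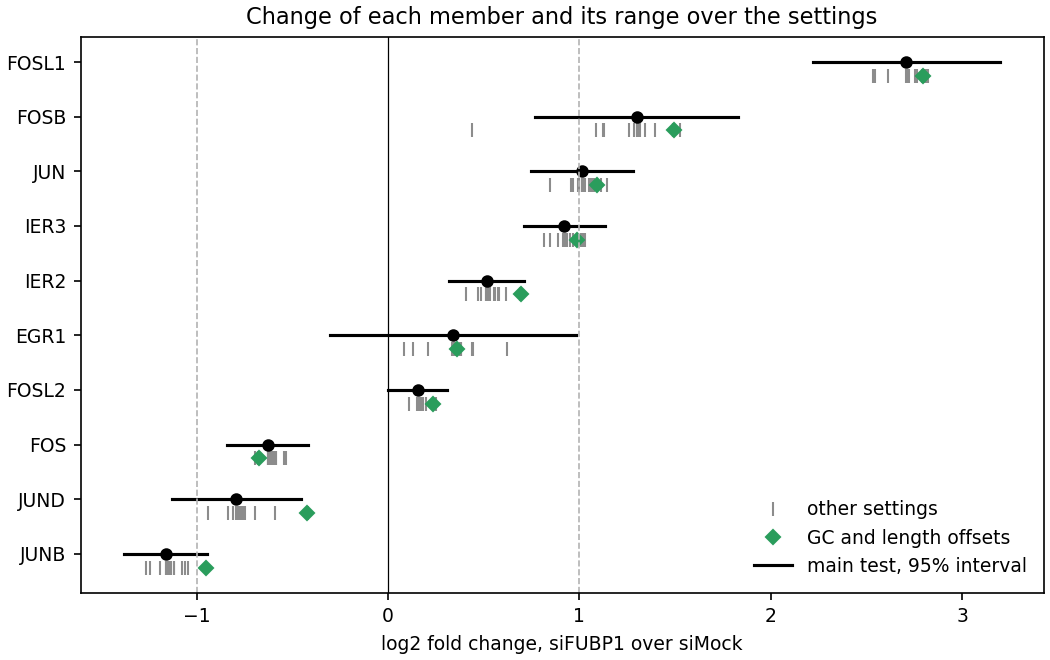
log2 fold change of siFUBP1 over siMock for each of the 10 genes: black points and lines are edgeR's estimate and its 95% interval, grey ticks the other settings, green diamonds the correction for GC content and length, and dashed lines a fold change of 2. JUND moves most under the correction, from -0.79 to -0.42, and no called gene crosses 0.

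The other immediate early genes gave 2 increases and 1 gene with no call. IER3 (ENSG00000137331, chromosome 6, 30743199 to 30744554, minus strand, 2 exons) encodes a small protein of the stress response that bears on cell survival and ERK signalling. It was at 67.9, 52.7 and 56.8 CPM in siMock and at 109.2, 128.6 and 98.2 CPM in siFUBP1, with no overlap. IER3 rose from 59.1 ± 7.87 to 112 ± 15.4 CPM (SD, n = 3 each), a log2 fold change of 0.92 (SE 0.101, edgeR adjusted p = 5.93e-08). It shares 359 exonic bases with IER3-AS1 on the opposite strand, which had at most 1 read in any sample.

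IER2 (ENSG00000160888, chromosome 19, 13150415 to 13154908, plus strand) encodes a nuclear protein induced with FOS and JUN by serum. It was at 42.0, 39.7 and 37.2 CPM in siMock and at 53.0, 65.2 and 51.8 CPM in siFUBP1. The groups stood apart by less than for IER3, the lowest siFUBP1 sample being 1.23 times the highest siMock sample. IER2 rose by 0.52 on the log2 scale (SE 0.0958, edgeR adjusted p = 4.56e-05). It shares 946 exonic bases with AC011446.2 on the opposite strand, which had 0 reads in all 6 samples, and with reads not known to be counted by strand the values of IER2, IER3 and JUNB are uncertain to that extent.

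EGR1 (ENSG00000120738, chromosome 5, 138465490 to 138469315, plus strand, 2 exons) encodes a zinc finger factor and is a known target of SRF and ELK1. It had 36, 17 and 26 reads in siMock and 30, 42 and 34 reads in siFUBP1, or 2.21, 1.00 and 1.67 CPM against 1.78, 2.42 and 1.95 CPM. The groups overlapped. Its log2 fold change was 0.34 with a 95% interval from -0.31 to 0.98 and an adjusted p of 0.366 by edgeR's quasi-likelihood test, so at this depth neither an increase of up to 0.98 nor a decrease of 0.31 could be told from no change. Leaving out 1 sample at a time moved it between 0.08 and 0.62.

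Single samples stood high for many of the genes at once. In siFUBP1, sample 2 was the highest of the 3 for 8 of the 10 genes, namely FOSB, FOSL1, FOSL2, JUN, JUNB, EGR1, IER2 and IER3, and it also had the lowest mitochondrial share. In siMock, sample 1 was the highest for 7, namely FOS, JUN, JUNB, JUND, EGR1, IER2 and IER3. For what share of all genes tested these samples were the highest was not counted, so nothing particular to the 10 genes is read from this. Without siFUBP1 2 the log2 fold changes of FOSL1, FOSB, JUN, IER3 and IER2 were 2.55, 1.12, 0.84, 0.82 and 0.41, and each was still called higher by edgeR's test. The same 5 genes were called higher and the same 3 lower with any single sample left out.

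Added up per length, the makeup of both families shifted. RPKM values, which are CPM divided by the gene length of the table in kilobases, make genes comparable within a sample. The FOS family summed to 58.3, 61.5 and 55.5 RPKM in siMock and to 114, 135 and 108 RPKM in siFUBP1. FOSL1 made up 20.3, 19.6 and 14.1% of that sum in siMock and 57.2, 63.0 and 53.7% in siFUBP1. FOSL2, whose own level did not pass the test, went from 66.4 ± 4.10% to 36.6 ± 3.90% of the sum, and FOS from 15.0 ± 0.961% to 4.82 ± 0.783% (SD, n = 3 each). FOSB stayed under 1% in every sample, at 0.546 ± 0.119% and 0.667 ± 0.132% (SD, n = 3 each), with the groups overlapping (exact permutation test, two-sided, p = 0.3).

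The JUN family summed to 200.4, 156 and 138 RPKM in siMock and to 111, 121 and 100.2 RPKM in siFUBP1. Its sum was thus lower while that of the FOS family was higher. The sums and shares of both families were not corrected for GC content and length. That correction brought the log2 fold change of JUND from -0.79 to -0.42 and of JUNB from -1.16 to -0.95. JUN made up 8.62, 9.87 and 10.9% of the JUN sum in siMock and 27.9, 32.6 and 25.8% in siFUBP1. The share of JUNB was 34.6 ± 1.72% and 22.8 ± 0.987%, and that of JUND 55.7 ± 2.86% and 48.4 ± 4.41% (SD, n = 3 each). JUND remained the largest JUN mRNA in all 6 samples. The groups did not overlap for either sum or for any share but that of FOSB, and the two-sided exact permutation test gave p = 0.10 for each, the smallest that 3 samples against 3 can give. The shares add up to the whole, so a rise of FOSL1 or JUN lowers the others by construction, and these are shares of mRNA, not of protein.

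**Figure D3:**
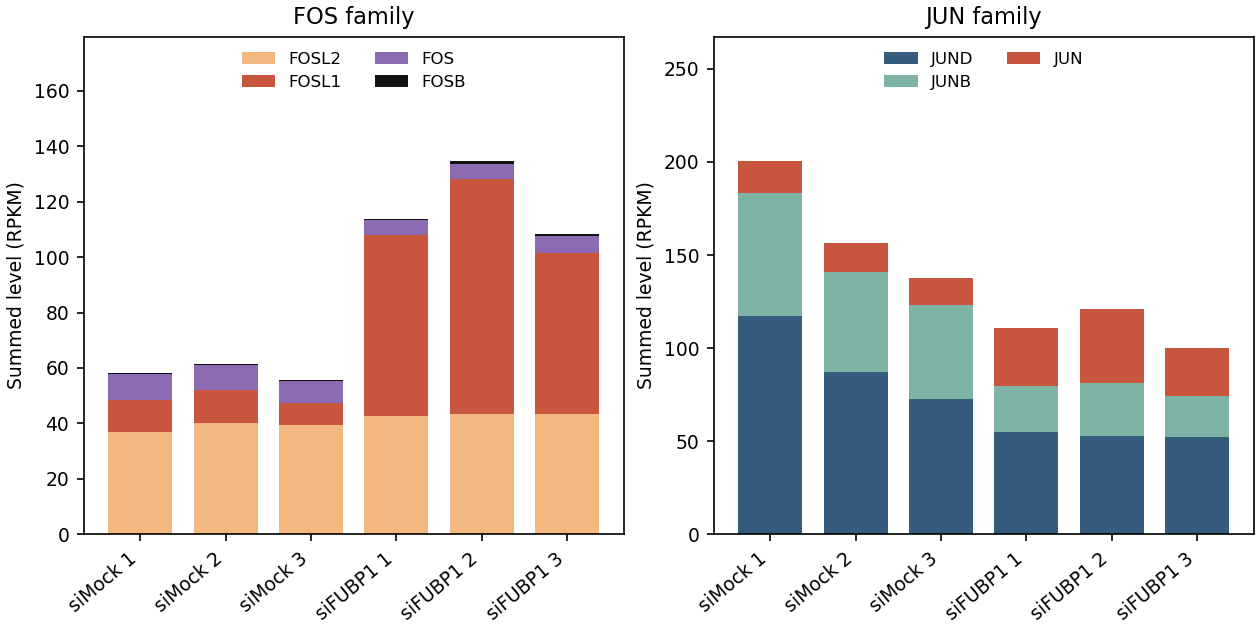
Stacked RPKM of the FOS genes (left) and the JUN genes (right) in each of the 6 samples; bar height is the family sum. The FOSL1 block makes up 14.1 to 20.3% of the FOS sum in siMock and 53.7 to 63.0% in siFUBP1, and the JUN block 8.62 to 10.9% and 25.8 to 32.6% of the JUN sum.

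The order of the 10 levels per length changed with it. In siMock it ran from JUND (92.4 RPKM) over JUNB (56.6), IER3 (43.6), FOSL2 (38.7), JUN (15.9), IER2 (12.9), FOSL1 (10.6), FOS (8.76) and EGR1 (0.518) to FOSB (0.321), each as mean RPKM of 3 samples. Neighbours whose samples overlapped in siMock were JUNB and IER3, IER3 and FOSL2, FOSL1 and FOS, and EGR1 and FOSB. In siFUBP1 the order of mean RPKM was IER3 (82.6), FOSL1 (69.3), JUND (53.3), FOSL2 (43.1), JUN (32.1), JUNB (25.3), IER2 (18.4), FOS (5.66), FOSB (0.796) and EGR1 (0.653). There IER3 overlapped FOSL1, JUN overlapped JUNB, and FOSB overlapped EGR1. By these lengths FOSL1 thus went from the seventh to the second place, and JUNB from the second to the sixth.

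The siRNA can also act on other mRNAs through its seed, bases 2 to 8 of the guide, so the seeds and their matches in the 3′ UTRs are shown. Guides were designed as RNAi#1, RNAi#2 and RNAi#3, and the sources do not say which of them was sequenced. The guide strands follow, with the seed in capitals.
RNAi#1: uAAACUGAaugcgaacacctt
RNAi#2: uAAGAGGUuugucagcacctt
RNAi#3: uUUCUUCUaugaguugccgtt
The matches in FOS, JUN, JUND and IER3 are given with the 7 matching bases in capitals and 8 bases on each side, and the position is that of the first capital in the 3′ UTR.
FOS, RNAi#2, 190: aagtccttACCTCTTccggagat
JUN, RNAi#2, 764: ctcccctaACCTCTTttctgcat
JUND, RNAi#3, 399: tggaagagAGAAGAAcagagtgt
JUND, RNAi#3, 505: aaatgggaAGAAGAAaaaaaaat
IER3, RNAi#3, 441: aaagtaggAGAAGAAatggggag
FOSL2 held 1 match to RNAi#1 and 1 to RNAi#3. The other 5 genes, FOSB, FOSL1, JUNB, EGR1 and IER2, held none. Over all 18442 genes with a 3′ UTR, 18.9%, 11.9% and 19.5% held a match to RNAi#1, RNAi#2 and RNAi#3. RNAi#2 matched FOS, which fell, and JUN, which rose. RNAi#3 matched JUND, which fell, and IER3, which rose, as well as FOSL2. The part of seed matches in these changes was not tested.

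The pathway around the 10 genes was read from lists of other genes, some of which are on more than 1 list. The counts of each list stand against 30.1% of all tested genes called higher, 30.1% called lower and 60.2% called in all, no list was tested against these shares, and nothing is read from a list as a whole. Of 42 further immediate early genes, 38 were tested, 19 were higher and 11 lower in siFUBP1 by the same edgeR test, or 78.9% called, with a median log2 fold change of 0.27. CTGF and CYR61, secreted matrix proteins and well known YAP targets, rose most, with log2 fold changes of 2.67 and 2.25, and CYR61 went from 28.7 ± 2.29 to 136 ± 21.0 CPM (SD, n = 3 each). PHLDA1, which encodes a protein of the pleckstrin homology-like family, rose by 1.62, and ID1, an inhibitor of basic helix-loop-helix factors, fell by 1.82 on the log2 scale. EGR2, EGR3 and EGR4, the relatives of EGR1, had at most 5 reads in any sample and were not tested.

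Of 41 other basic leucine zipper genes, from which AP-1 proteins draw further partners, 38 were tested, with 19 higher and 9 lower (73.7% called, where 60.2% of all genes were) and a median of 0.33. DDIT3, which encodes the stress factor CHOP, rose by 3.09 on the log2 scale, from 9.36 ± 2.51 to 79.8 ± 13.4 CPM (SD, n = 3 each). MAFA and CEBPA fell, with log2 fold changes of -2.70 and -1.50. MAFA had only 6 to 8 reads per siFUBP1 sample. Outside the rule for naming genes, and chosen after its values were seen, ATF3, an AP-1 partner and itself an immediate early gene, rose by 1.07.

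Of 38 genes of the MAP kinase cascades and of SRF and its cofactors, 37 were tested, 9 were higher and 13 lower (59.5% called, where 60.2% of all genes were), with a median of -0.10. With the correction for GC content and length, 14 were higher. MAPK13, a p38 kinase, rose by 2.39 on the log2 scale from a low level, 3.59 ± 0.336 to 18.8 ± 2.55 CPM (SD, n = 3 each). MAPK11, another p38 kinase, fell by 1.41, MRTFA, a cofactor of SRF, fell by 0.91, and RPS6KA5, a kinase that acts on histones at immediate early genes, rose by 0.81. Picked once their values were known, MAPK3 and SRF lay at -0.09 and 0.13 on the log2 scale and did not pass the test. The ELK genes, picked likewise, were all called: ELK1 and ELK4 were higher, at 0.48 and 0.63, and ELK3 was lower, at -0.38. The value of SRF depended on the setting: 3 of 17 alternatives called it higher, at up to 0.34 with the GC and length offsets. MAPK3 was called in none of 17 and ran from -0.14 to 0.11.

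Of 22 genes on the list of ERK feedback and output, whose mRNA is known to follow ERK activity, 19 were tested, with 14 higher and 3 lower (89.5% called, where 60.2% of all genes were) and a median of 0.59. ETV1, a factor of the ETS family, rose by 1.88 on the log2 scale from 8 to 15 reads per siMock sample. DUSP6 and SPRY2, which encode feedback inhibitors of ERK signalling and were named after their values were seen, rose by 1.29 and 1.21. The 3 called lower were CCND1 (-2.27), SPRED3 (-1.58) and SPHK1 (-0.38), the last named as the remaining one of 3. The call of SPHK1 was lost with GC and length offsets, without and with the replicate block, where it came to -0.03 and 2 genes of the list were lower. CCND1 encodes cyclin D1, also a known target of AP-1, and went from 218 ± 13.8 to 45.2 ± 1.13 CPM (SD, n = 3 each).

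Of 32 known AP-1 targets, 19 were tested, with 8 higher and 5 lower (68.4% called, where 60.2% of all genes were) and a median of 0.13. The other 13, MMP1, MMP3 and MMP13 among them, had too few reads. CXCL8, which encodes interleukin 8, rose by 3.68 on the log2 scale, from 0.557 ± 0.182 to 7.17 ± 2.95 CPM (SD, n = 3 each). MMP9, a matrix metalloproteinase, fell by 2.68, and CCND1 is on this list too. With library totals alone as the scaling, 3 rather than 5 targets were called lower.

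Of 26 genes that control the decay of AU-rich mRNAs and the turnover of AP-1 proteins, 25 were tested, with 9 higher and 7 lower (64.0% called, where 60.2% of all genes were) and a median of 0.12. DCP1A and DCP2, of the decapping complex, rose by 1.24 and 0.83 on the log2 scale. FBXW7, the ubiquitin ligase subunit that recognises JUN, also rose by 0.83, and TIA1, which binds AU-rich mRNAs, fell by 0.85. Heat shock genes, which report on stress and handling, were tested for 13 of 14, with 3 higher and 8 lower (84.6% called, where 60.2% of all genes were) and a median of -0.61. Their summed level was 5133 to 5590 CPM in siMock and 4017 to 5428 CPM in siFUBP1. HSPA1A and HSPA1B, near-identical copies whose reads cannot be assigned with certainty, fell, with log2 fold changes of -2.33 and -2.27, as did HSPA8 (-1.70) and DNAJA1 (-1.44). The part of this difference in the immediate early genes was not tested.

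**Figure D4:**
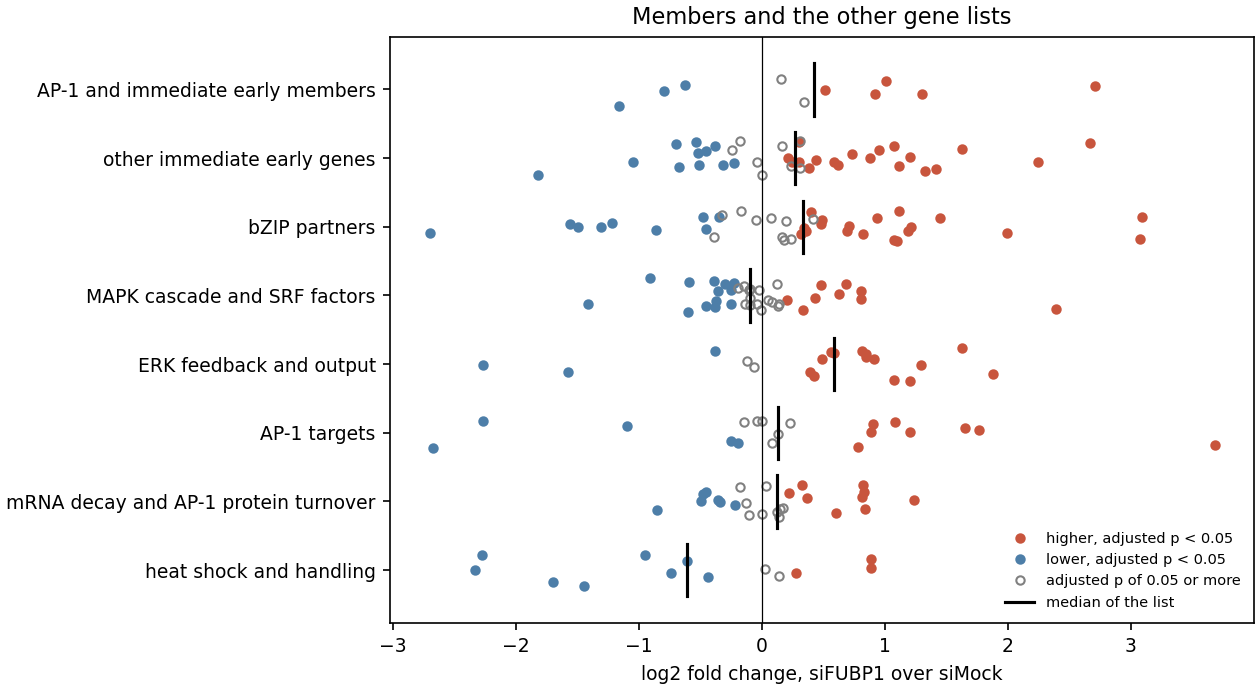
log2 fold change of siFUBP1 over siMock for the 10 genes and the other 7 gene lists, 1 point per gene tested: red and blue for higher and lower at an adjusted p below 0.05, open for the others, with the list median as a black line and vertical positions within a list arbitrary. Medians run from -0.61 (heat shock and handling) to 0.59 (ERK feedback and output), and each list holds genes called in both directions.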

How the data were processed

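RNA from cells labelled MG63 was sequenced in 3 siFUBP1 and 3 siMock samples, grouped by their titles. The authors deposited 1 table of read counts per gene without normalization. The FPKM values were also deposited by the authors, from the counts and gene lengths. HISAT2 2.0.5, StringTie 1.3.3b, featureCounts 1.5.0-p3 and DESeq2 1.16.1 are named in the submitters' processing notes, without roles, and the use of strand is not given in the sources used here. Identifiers and coordinates match GENCODE 29 (GRCh38). The authors' group means, fold changes and p-values were not used.

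The comparison used edgeR 4.0.16 (R 4.3.3): its expression filter, TMM scaling, a robust quasi-likelihood fit and F test, and Benjamini-Hochberg adjusted p over 16116 genes. TMM factors were 0.959 to 1.05. Every pair of samples differed by more than sampling noise. On simulated counts for this comparison, 200 of 16116 genes were changed, 100 by 1 and 100 by 2 on the log2 scale. Of these, 91% and 100% were recovered, with 17 false calls. In the data 60.2% of all genes tested were called. The simulation therefore did not try the scaling or the test with so many genes changed.

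The members and lists were chosen with earlier results of these data known. Named genes are the 10 members, FUBP1 and, per list, up to 4 genes with the largest change among those that were called, averaged 20 counts or more and had no overlap between groups. Others are named as chosen after their values were seen, apart from markers and genes too low to test. Some genes that the rule names are not reported here. Alternatives were other scalings and filters, DESeq2 1.42.0, limma 3.58.1 on log2(FPKM + 1) and log2(FPKM + 0.1), GC and length offsets (smooth trend, span 0.3), omission of each sample, and a block on the replicate number. For the other lists, the GC and length offsets were added after seeing the data. Intervals and limits cover counting error or the spread of these samples only.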

Additional observations from a re-analysis of the deposited data

How the results depend on the processing

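Directions of the 10 genes held under all 17 alternatives (16 for EGR1, which a mean of at least 50 counts removes, with MAFA, MMP9, SPRED3 and ETV1). The counts of 5 higher and 3 lower held too, apart from FOSL2, called higher with library totals alone (0.25), upper quartile factors (0.20), DESeq2 (0.16), GC and length offsets (0.24) and the replicate block without or with these offsets (0.15 and 0.24). Past 2-fold, 1 gene rather than 3 was higher with limma on log2(FPKM + 1), where all genes past 2-fold numbered 462 higher and 588 lower instead of 1315 and 1472. That scale also brought listed genes of low level down by more than 1.5 times, all still called: MAFA (-0.81), MAPK13 (1.27), RPS6KA5 (0.30), ETV1 (0.23), DUSP6 (0.72), SPRY2 (0.73), SPRED3 (-0.47), CXCL8 (1.69), MMP9 (-1.01) and FBXW7 (0.52). With GC and length offsets 0 rather than 1 was lower, alone and with the replicate block, and 14 rather than 9 genes of the MAPK cascade and SRF list were higher. With library totals alone, 3 rather than 5 AP-1 targets were lower, and the median of all genes moved to 0.10. Leaving out 1 sample at a time gave 5 higher and 3 lower each time, and 2 to 4 higher past 2-fold; JUN fell short of 2-fold without siFUBP1 2 (0.84), siMock 2 (0.99) or siMock 3 (0.97), and IER3 passed it without siMock 1 (1.03) or siFUBP1 3 (1.01). The JUN family sum differed by -67.7 to -36.4 RPKM and the FOS family sum by 52.7 to 65.8 RPKM. Same-numbered samples deviated together with r = 0.0282, 0.0478 and 0.238 for numbers 1, 2 and 3, so the numbers were not taken as pairs. With the block, 5013 genes were higher and 5001 lower, instead of 4844 and 4851. Depth limits FOSB and EGR1, with 17 to 95 reads per sample.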
